A study of Sus scrofa with 102 samples.

Results

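The livers of 5-month-old (fattening) pigs of 2 crossbred types were compared on 15 of the 102 arrays of the study, chosen by the tissue and age that their labels give. LWDL pigs (8 arrays) had a Landrace sire and LWDM pigs (7 arrays) a Meishan sire. Their dams were LWD females, a cross of Landrace, Large White and Duroc, so all of the animals carried the same kind of maternal genome and differed in the paternal one. All were females on a commercial grain diet with free access to water, untreated, and slaughtered in the morning. Per the methods, 1 boar of each breed and 2 LWD females per cross were used, so a difference between the breed types cannot be told apart from a difference between these sires or dams. The labels give no dam or litter for a pig, so litter is in no fit, and p values take pigs of the same parents as independent. Each array held the Cy3-labeled liver RNA of 1 pig and, in Cy5, the control RNA shared by all arrays, pooled from the livers of 2 LWD females, and the dyes were not exchanged. Values are given as log2 of sample over control, and differences as LWDM minus LWDL on that scale, so that a difference of 1 is a 2-fold change.

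The liver makes fatty acids and triglycerides from excess carbohydrate, breaks down amino acids for glucose and energy, oxidizes and conjugates drugs and steroids, stores metals, and secretes most of the plasma proteins. SREBF1, a transcription factor that responds to insulin, drives the genes of fatty acid synthesis, and FASN and SCD make and desaturate the fatty acids that are then joined into triglycerides. Cytochrome P450 enzymes add oxygen to lipids and foreign compounds, and glutathione S-transferases and UDP-glucuronosyltransferases conjugate the products for excretion. Meishan pigs are known as a fat breed and Landrace pigs as a lean one.

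A probe entered the test if the Cy3 spot of all LWDL pigs, or of all LWDM pigs, was well above background, and it was called where the breed types differed by over 2-fold with a limma adjusted p under 0.05 over all tested probes. Of 32099 probes tested, 704 (2.19%) were called, 353 (1.1%) higher and 351 (1.09%) lower in LWDM pigs. The breed types did not overlap, meaning that every array of one lay above every array of the other, for 2100 probes (6.54%), of which 367 were also called. The median difference over all tested probes was -0.000882. Genes could be named only where the study's tables of differentially expressed probes list them. Of the 704 called probes, 519 had a name and 185 had none. The listing itself was made from these arrays. Of the 1153 named genes tested, 34.2% were called, and of the 776 that the tables do not list for this liver, 17 (2.19%). The unlisted genes had missed the study's own cutoffs on these arrays and have a name only through another comparison of the study. Few calls among them, or none in a list below, therefore follow from that choice and are no test of the lists. Counts of called genes in the lists below are therefore not independent evidence of a direction, and the median over the unlisted members stands beside each pathway list. Of the 167 unlisted members of the pathway lists, 81 had an unadjusted p under 0.05 and 58 an adjusted p under 0.05 by limma, 2 were called, and 0 were called by Student's test with equal variances. The share of all tested probes under these p limits is not given, so such counts, here and below, cannot be read as an excess.

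The share of the 43221 probes that were well above background ran from 72.1% to 81.3% over the 15 arrays, no spot was saturated, and median spots were 3.64 to 4.79 times as bright as the background. In a principal component analysis, component 1 (38.2% of the variance) ran from -55 to -17.2 in LWDL pigs and from 17.7 to 45.8 in LWDM pigs, so it separated the breed types with no overlap. Component 2 (12.2%) separated LWDL pigs 1, 2, 7 and 8 from LWDL pigs 3 to 6, and set LWDM pig 2 apart from the other LWDM pigs. Correlations across probes were lower among LWDL pigs (median 0.692) than among LWDM pigs (median 0.8), and had a median of 0.552 between the breed types. LWDL pig 6 stood apart most, with a mean correlation of 0.609 to its group. Without LWDL pig 6, 664 probes were called. Each slide held arrays of 1 breed type, with 2 slides for each, so slide and breed type can be separated only as a random block, which gave 705 called probes. The p values measure only the spread between these pigs.

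**Figure D1:**
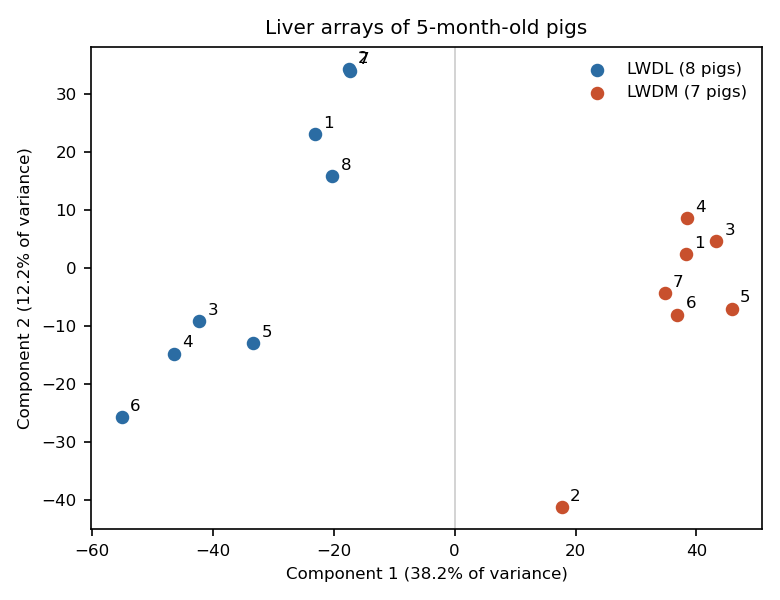
Each point is the liver array of 1 pig at 5 months, placed by its first principal components (x axis, component 1 with 38.2% of the variance; y axis, component 2 with 12.2%) and marked with its number, LWDL in blue and LWDM in orange. The 8 LWDL pigs lie at -17.2 or less and the 7 LWDM pigs at 17.7 or more on component 1, and the LWDL pigs spread more widely on component 2.

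How far a difference depended on the processing followed the brightness of the probe. When the background was corrected anew (normexp) and the dyes were normalized by loess, all 704 called probes kept their direction and 679 kept an adjusted p under 0.05, but 318 remained over 2-fold and called. Of the 352 brighter called probes 256 remained called, and of the 352 dimmer ones 62 did, a split made after the data had been seen. The offset of 50 that normexp was given pulls the ratios of dim spots toward 0, so this split was in part fixed by the setting. In the account of single genes, the normexp value is given in brackets wherever it ended the call or changed the log2 difference by over 1.5 times. Most genes of lipid and amino acid metabolism, the metallothioneins and most detoxification enzymes carry no such bracket. Of the 108 called genes reported, 37 were not well above background on some arrays of the breed type with the lower value, so that their differences are fitted ratios of uncertain size. For 24 of these, 5 or fewer arrays of that type were well above background: in LWDM pigs 3 of 7 for PPARG and MFAP5, 4 of 7 for AMBN, CCL8, HBE1, KIAA1199, SLC15A2 and SLPI, and 5 of 7 for BTNL9, COL6A5 and EAF2, in LWDL pigs 3 of 8 for PANK3 and 5 of 8 for MYOM2 and SESN3, and fewer for the 10 others, given where they are named. In tissue RNA, a lower value from fewer cells of a type cannot be told apart from less RNA per cell.

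PAPLN, which encodes the extracellular matrix protein papilin, had the largest difference among the genes for which the breed types did not overlap. Its value ran from -2.03 to -1.37 in LWDL pigs (median -1.69) and from 2.81 to 3.19 in LWDM pigs (median 2.91), a difference of 4.64 (SE 0.09, limma adjusted p = 2.16e-14). No value fell between the types. LOC285141 (ERICH2 in the pig) ran from -5.75 to -4.78 in LWDL and from -1.13 to -0.62 in LWDM pigs. Its signal was not well above background on any LWDL array, so that LWDM pigs had an at least 1.79-fold higher level by the bound from the Cy3 channel [0.92 with normexp, not called]. NEBL, which encodes the actin-binding protein nebulette, ran from -3.75 to 0.88 in LWDL pigs (median -2.85) and from 1.23 to 3.15 in LWDM pigs (median 1.39), a difference of 4.21 (SE 0.56, limma adjusted p = 9.06e-05) [1.39]. In LWDL pig 4 alone among the LWDL pigs NEBL was well above background, so the size of its difference is uncertain.

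SFTPD, which encodes surfactant protein D, a collectin that binds microbial sugars, ran from -0.58 to 0.02 in LWDL pigs (median -0.18) and from 2.51 to 3.27 in LWDM pigs (median 3.00), a difference of 3.17 (SE 0.11, limma adjusted p = 4.39e-11) [1.97]. MAN2B2, a lysosomal mannosidase, ran from -1.41 to 0.52 and from 2.49 to 3.53, a difference of 3.04 (SE 0.26) [1.51]. ASZ1, known for its role in the germ line, differed by 3.85 (SE 0.29) [1.03], and FKBP14, a chaperone for collagen in the endoplasmic reticulum, by 3.71 (SE 0.33) [0.85, not called]. For ASZ1 and for FKBP14, 1 of the 8 LWDL arrays was well above background, and the scanner software gave 6 and 4 of them a ratio of exactly 0, so these differences are fitted ratios of uncertain size. The second probe of FKBP14 was at -0.45 (limma adjusted p = 0.205). For these genes, with this probe of FKBP14, each LWDM pig lay above each LWDL pig.

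In the other direction, GSTA3, a glutathione S-transferase, ran from 0.20 to 1.04 in LWDL pigs (median 0.48) and from -3.62 to -0.17 in LWDM pigs (median -3.51), a difference of -3.54 (SE 0.41, limma adjusted p = 3.09e-05). Of the LWDM pigs, 6 lay between -3.62 and -3.34 and pig 3 stood alone at -0.17, closer to the LWDL pigs. KIAA1199, which encodes a protein that breaks down hyaluronan, ran from -0.63 to 1.32 and from -4.24 to -2.43, a difference of -3.29 (SE 0.34) [-1.38]. AMBN, which encodes the enamel protein ameloblastin, differed by -3.26 (SE 0.51) [-1.70]. POLR3B, a subunit of RNA polymerase III, ran from 2.47 to 3.94 in LWDL pigs (median 3.01) and from -0.24 to 0.26 in LWDM pigs (median -0.04), a difference of -3.15 (SE 0.18, limma adjusted p = 1.8e-08) [-1.90]. COL6A5, a chain of collagen VI, differed by -2.56 (SE 0.32) [-1.15], PKHD1, the protein of the primary cilium that is mutated in recessive polycystic kidney disease, by -2.10 (SE 0.33) [-1.12], and C8orf47 (ERICH5) by -2.08 (SE 0.32) [-0.54, not called], with 1 of 7 LWDM arrays well above background for C8orf47. None of these genes had an LWDM pig above an LWDL pig.

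The genes of fatty acid synthesis that were called were higher in LWDM pigs. Of 15 members of the list tested, 7 were called higher, among them PANK3, ACSL4, PNPLA3, SCD, SREBF1 and FASN, while 0 were lower and 8 were not called, with a median of 0.65 over the 15. The tables list these same 7 for this liver, and the 8 other members had a median of -0.33. By limma 5 of these 8 had an unadjusted p under 0.05 and 3 an adjusted p under 0.05, and none was called. No share of all tested probes at these p limits stands beside these counts. All 7 were also called with normexp, where the median was 0.64. SREBF1 ran from -1.11 to -0.19 in LWDL pigs (median -0.47) and from 0.29 to 1.88 in LWDM pigs (median 0.69), a difference of 1.39 (SE 0.22, limma adjusted p = 0.000318), and the types did not overlap. SCD, the stearoyl-CoA desaturase, ran from -0.93 to 0.44 (median -0.68) and from 0.73 to 1.76 (median 0.81), and all 5 of its probes were called, with differences from 1.39 to 1.48. ACSL4, which activates long-chain fatty acids and prefers arachidonic acid, ran from -0.51 to 0.15 and from 1.17 to 1.96, a difference of 1.64 (SE 0.13, limma adjusted p = 6.85e-07).

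FASN, the fatty acid synthase, ran from -0.86 to 1.42 in LWDL pigs (median 0.68) and from 1.39 to 2.43 in LWDM pigs (median 1.96), a difference of 1.38 (SE 0.27, limma adjusted p = 0.00174). The highest LWDL pig and the lowest LWDM pig met at about the same value. PANK3, the kinase at the start of coenzyme A synthesis, ran from -2.40 to 1.92 in LWDL pigs and from 1.85 to 2.83 in LWDM pigs, a difference of 3.14 (SE 0.51) [1.41], with LWDL pig 1 alone inside the LWDM range and 3 of 8 LWDL arrays well above background. ELOVL5, an elongase of polyunsaturated fatty acids, had an adjusted p of 0.000402 by limma but a difference of 0.65, under 2-fold. The elongases ELOVL7 (-0.92, limma adjusted p = 0.00586, under 2-fold) and ELOVL6 (-0.67, 0.101) lay in the other direction. INSIG1, which holds back the processing of SREBF1, had -0.41 (limma adjusted p = 0.0910).

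On the list of triglyceride synthesis and lipid droplets, 5 of 11 tested members were called higher and 3 lower (4 and 1 with normexp). The 3 members that the tables do not list had a median of 0.46 and none was called. MFSD2A, which carries lysophospholipids into cells, ran from -4.00 to -2.04 in LWDL pigs (median -3.22) and from -2.09 to 0.38 in LWDM pigs (median -0.61), a difference of 2.51 (SE 0.33, limma adjusted p = 7.94e-05), with 1 LWDM pig just inside the LWDL range. PNPLA3, a lipid droplet protein that acts on triglycerides, differed by 1.58 (SE 0.34) and FABP3, a fatty acid binding protein best known from muscle, by 1.10 (SE 0.28). Without LWDM pig 5 the difference of FABP3 was 0.98 and no longer called. Lower were SORT1, a sorting receptor that affects lipoprotein secretion, at -1.14 (SE 0.20) [-0.68, not called], ANGPTL4, an inhibitor of lipoprotein lipase, at -1.04, and PPARG, the main regulator of fat cell differentiation, at -1.08 (SE 0.18) [-0.19, not called]. The call of PPARG was also lost without LWDM pig 5 (-0.98). GPAM, which makes the first acylation of glycerol phosphate, was at 0.46 (limma adjusted p = 0.0793), and G0S2, an inhibitor of triglyceride breakdown, at 0.86 (limma adjusted p = 0.00358, under 2-fold).

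Of 20 members of fatty acid oxidation and ketone body formation, 5 were called higher and 0 lower, with medians of 0.36 over all and 0.12 over the 15 unlisted members. ACADSB, which oxidizes short branched acyl-CoA from isoleucine, ran from -0.94 to -0.26 in LWDL pigs (median -0.50) and from 0.50 to 1.32 in LWDM pigs (median 1.00), a difference of 1.58 (SE 0.12, limma adjusted p = 3.97e-07). ECI2, an enoyl-CoA isomerase, differed by 1.31 (SE 0.19). MCCC2, a subunit of the carboxylase of leucine breakdown, ran from -1.45 to -0.72 and from 0.16 to 0.78, a difference of 1.47 (SE 0.11, limma adjusted p = 5.45e-07). ACADSB, ECI2 and MCCC2 did not overlap between the types. ACSM2A (pig ACSM2B), a medium-chain acyl-CoA synthetase, differed by 1.20 (SE 0.30) [0.72, not called], and its 3 other probes lay between -0.30 and 0.41.

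Cholesterol synthesis and uptake gave 1 call among 18 members, SOAT1, which esterifies cholesterol, at 1.04 (SE 0.15) [0.60, not called]. The second probe of SOAT1 was at 0.28 (limma adjusted p = 0.136). Its call was also lost without LWDL pig 3 (0.99), LWDL pig 4 (1.00) or LWDM pig 5 (0.96). The 17 unlisted members had a median of -0.06 and none was called. HMGCS1 differed by 0.24 (limma adjusted p = 0.646), SQLE by -0.37 (0.104), IDI1 by 0.40 (0.433) and MSMO1 by -0.11 (0.683), all enzymes of the pathway that leads to sterols.

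**Figure D2:**
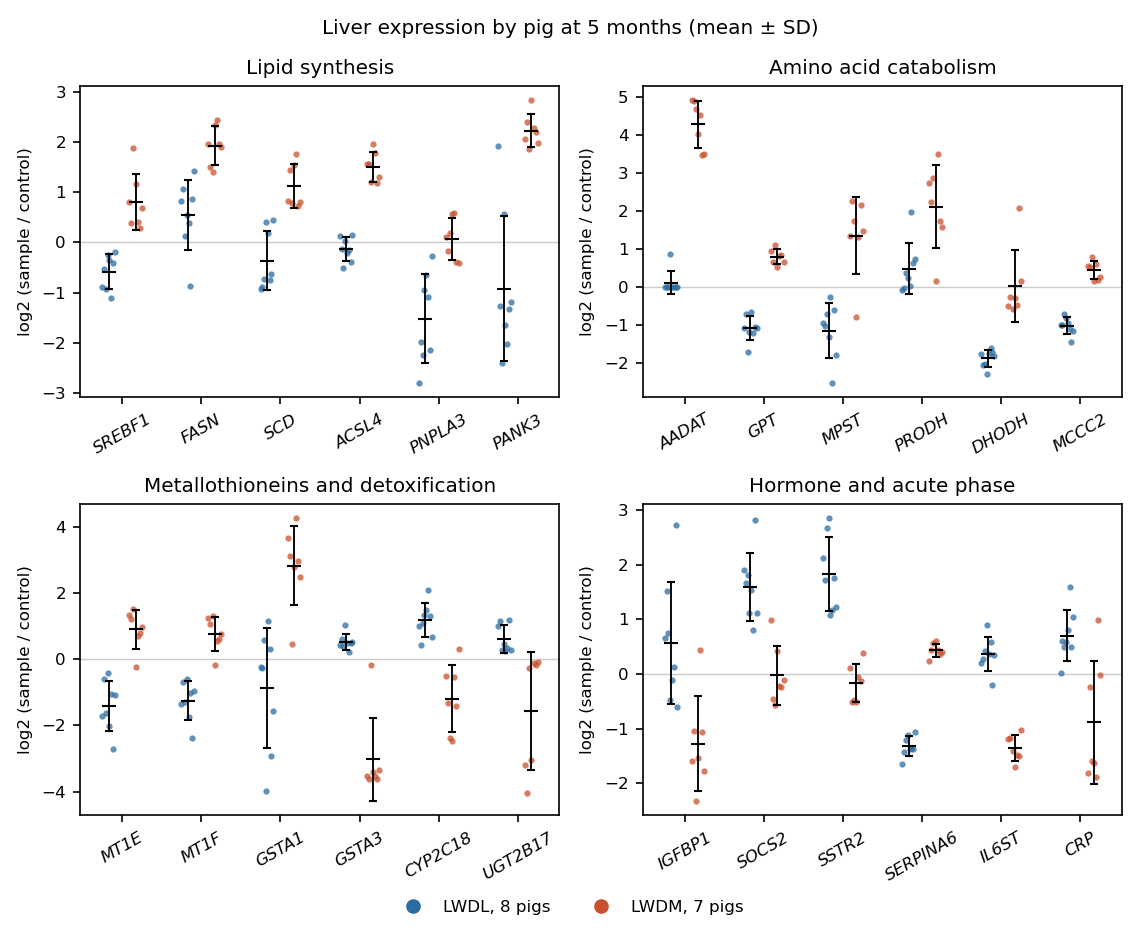
Each point is 1 pig at 5 months (LWDL blue, 8 pigs; LWDM orange, 7 pigs), the y axis is log2 of sample over control, and black bars are the mean and SD of each type for 6 genes in each of 4 panels. SREBF1, ACSL4, GPT, MCCC2 and SERPINA6 separate the types with no overlap, whereas GSTA3 and UGT2B17 show LWDM pigs that lie at 2 levels.

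The list of amino acid breakdown, which also holds DHODH of pyrimidine synthesis, had the most genes called higher in LWDM pigs. Of 20 members 11 were called higher and 0 lower (9 and 0 with normexp), with a median of 1.04. The tables list 11 of the members for this liver, and the 9 others had a median of 0.10 with none called. GPT, the alanine aminotransferase that feeds alanine carbon into glucose formation, ran from -1.72 to -0.67 in LWDL pigs (median -1.08) and from 0.52 to 1.11 in LWDM pigs (median 0.81), a difference of 1.88 (SE 0.13, limma adjusted p = 1.88e-07). No LWDL pig came within 1 unit of the LWDM pigs. AADAT, the aminotransferase of kynurenine and aminoadipate, was not well above background on any of the 8 LWDL arrays, of which 7 were given a ratio of exactly 0 by the scanner software. LWDM pigs ran from 3.48 to 4.92 (median 4.53), and their level was at least 3.35-fold higher by the Cy3 bound (limma adjusted p of the fitted ratio = 7.91e-09) [1.69].

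MPST, which moves sulfur from mercaptopyruvate, ran from -2.54 to -0.27 in LWDL pigs (median -0.997) and from -0.79 to 2.26 in LWDM pigs (median 1.47), a difference of 2.51 (SE 0.41, limma adjusted p = 0.000451). LWDM pig 4, at -0.79, lay inside the LWDL range, and the 6 other LWDM pigs lay at 1.31 or more. DHODH, the mitochondrial enzyme of pyrimidine synthesis, ran from -2.31 to -1.60 and from -0.59 to 2.09, a difference of 1.91 (SE 0.31) [1.23], with LWDM pig 6 far above the others. PRODH, the first enzyme of proline breakdown, ran from -0.08 to 1.97 in LWDL pigs (median 0.29) and from 0.15 to 3.49 in LWDM pigs (median 2.23), a difference of 1.63 (SE 0.42, limma adjusted p = 0.00923). OAT, which converts ornithine, was higher by 1.63, ACMSD, which steers tryptophan away from NAD, by 1.18, CSAD, which makes the precursor of taurine, by 1.13, CTH, which makes cysteine, by 1.04 [0.55, not called], and ETHE1, which oxidizes sulfide, by 1.03 [0.92, not called]. AMDHD1 of histidine breakdown (-0.46, limma adjusted p = 0.00678) and PHGDH, which starts serine synthesis (-0.55, 0.0142), were under 2-fold in the other direction.

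Metallothioneins, small cysteine-rich proteins that bind zinc and copper, were higher in LWDM pigs. The 4 human symbols MT1E, MT1L, MT2A and MT1F were called and correspond to probes for pig MT1A, for the first 3, and pig MT-2B, so they stand for fewer pig genes than names. MT1E ran from -2.70 to -0.43 in LWDL pigs (median -1.35) and from -0.24 to 1.53 in LWDM pigs (median 0.97), a difference of 2.30 (SE 0.32, limma adjusted p = 0.000129). MT1F ran from -2.36 to -0.60 and from -0.17 to 1.31, a difference of 2.01 (SE 0.26, limma adjusted p = 6.78e-05). MT2A differed by 2.30 (SE 0.35) and MT1L by 1.97 (SE 0.30). LWDM pig 4 was the lowest of its type for each of them, and MT2A alone overlapped between the types. The probe named MTF1, after the zinc-sensing factor that switches metallothionein genes on, targets pig LOC100737977 and was lower in LWDM pigs, at -1.13 (SE 0.28) [-0.34, not called], a call that was also lost without LWDL pig 4 (-0.96). The zinc carriers SLC39A10 (-0.71) and SLC39A9 (-0.40) were not called. The 4 metallothionein symbols were among the 5 genes of this list of 7 that the tables give for this liver, and the 2 unlisted members had a median of -0.55.

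Oxidizing enzymes moved in both directions. Of 15 cytochrome P450, flavin and related oxidation genes, 7 were called higher and 4 lower (5 and 4 with normexp), with a median of 0.02. The 4 unlisted members had a median of -0.21. CYP4F3, whose probe targets pig CYP4F2, an enzyme that adds oxygen to the end of fatty acids and leukotriene B4, ran from -1.06 to -0.14 in LWDL pigs (median -0.62) and from 0.53 to 3.77 in LWDM pigs (median 3.13), a difference of 3.10 (SE 0.44, limma adjusted p = 0.000141). LWDM pigs 4 and 5 lay at 0.53 and 0.70 and the 5 others at 2.99 or more. The same 2 pigs were lowest for the probe named CYP4F2, which differed by 1.56 (SE 0.28), whereas the 3 probes of pig CYP4F55 differed by 0.06 to 0.45. CYP2J2 (pig LOC100524940), an epoxygenase of arachidonic acid, was called with all 4 probes, from 1.46 to 2.60.

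Lower in LWDM pigs was CYP2C18 (pig CYP2C91), of the drug-oxidizing CYP2C family, which ran from 0.43 to 2.10 in LWDL pigs (median 1.19) and from -2.47 to 0.31 in LWDM pigs (median -1.31), a difference of -2.36 (SE 0.37, limma adjusted p = 0.000330). Probes of its relatives CYP2C49 (-0.87 and -0.82) and CYP2C42 (-0.22) were under 2-fold. CYP3A4 (pig CYP3A46), of the main family of drug oxidation, differed by -1.10 (SE 0.16) with the types apart, and probes of CYP3A29 by -0.09 and 0.02. The members of these families therefore differed unequally between the breed types, and near-identical copies may share signal on such probes.

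Conjugating enzymes were also split, with 4 of 14 called higher and 6 lower (2 and 6 with normexp) and a median of -0.02. The 5 unlisted members had a median of 0.04, and 1 of them, GSTK1, was called lower (-1.43). GSTA1 (a pig gene known by the identifier LOC100510917) ran from -3.99 to 1.15 in LWDL pigs (median -0.25) and from 0.47 to 4.25 in LWDM pigs (median 2.95), a difference of 3.68 (SE 0.73, limma adjusted p = 0.00181) [2.12]. Its 2 other probes, which target pig GSTA1, differed by -0.15 and 0.08. GSTM4 (LOC780435), of the mu class, ran from -1.54 to 1.06 and from 1.23 to 1.88, a difference of 2.00 (SE 0.29). GSTM3 of the same class ran from -0.63 to 0.87 and from -3.19 to 0.56, a difference of -1.76 (SE 0.48), with LWDM pigs 2 and 3 at 0.11 and 0.56 and the 5 others at -1.92 or less. The glutathione S-transferases thus included GSTA1 and GSTM4 with higher values and GSTA3, GSTM3 and GSTK1 with lower values in LWDM pigs.

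UGT2B17 (pig UGT2B31), which glucuronidates steroids, ran from 0.25 to 1.18 in LWDL pigs (median 0.40) and from -4.03 to -0.07 in LWDM pigs (median -0.27), a difference of -2.17 (SE 0.58, limma adjusted p = 0.0118). LWDM pigs 1, 2 and 4 lay between -4.03 and -3.04 and the 4 others between -0.27 and -0.07, all of them below every LWDL pig. A second probe of the gene differed by -0.93, under 2-fold (limma adjusted p = 2.32e-05). SULT1E1, the estrogen sulfotransferase, was at 0.32 (limma adjusted p = 0.266). GLYAT, which conjugates acyl-CoA with glycine, was at -0.07 with the probe that represents it.

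Of 9 genes of retinoid handling, 3 were called higher and 0 lower, and the 6 unlisted members had a median of -0.08. RDH16, a retinol dehydrogenase, ran from -0.84 to -0.53 in LWDL pigs (median -0.69) and from 0.19 to 0.52 in LWDM pigs (median 0.39), a difference of 1.05 (SE 0.06, limma adjusted p = 2.16e-08) [1.00, not called]. Its 7 probes, of which 4 target pig RDH16, differed by 0.81 to 1.22 and 3 of them were called, so the difference lay close to 2-fold. RARB, a retinoic acid receptor, differed by 1.24 (SE 0.24) [0.65, not called], with a second probe at 0.32 (limma adjusted p = 0.510), and RARRES1, a gene induced by retinoids, by 1.02 (SE 0.23), a call that was lost without LWDL pig 4 (0.88), LWDL pig 6 (0.90) or LWDM pig 3 (0.98). RBP4, the plasma carrier of retinol, was at 0.16 and CYP26A1, which degrades retinoic acid, at 0.01.

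Glucose and glycogen genes gave 4 calls of 21, all higher, of which 3 were listed (1 of the 4 with normexp), and the 18 unlisted members had a median of -0.15. GYG2, the primer of liver glycogen, ran from -0.79 to -0.01 in LWDL pigs (median -0.36) and from 0.71 to 1.20 in LWDM pigs (median 0.90), a difference of 1.30 (SE 0.12, limma adjusted p = 2.89e-06) [0.97, not called]. PDK1, which shuts pyruvate dehydrogenase, differed by 1.20 (SE 0.22) [0.46, not called]. PGM1, which joins glycogen and glucose metabolism, differed by 1.01 (SE 0.35) [0.97, not called], and its call was lost when any pig but LWDL 3, LWDL 4, LWDL 7 or LWDM 1 was left out (0.89 to 1.04). PCK1, the enzyme that commits carbon to glucose formation, was at -0.97 (SE 0.25, limma adjusted p = 0.0106, under 2-fold) and G6PC, which releases glucose, at -0.18 (limma adjusted p = 0.748).

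Among 30 genes of insulin, growth hormone and stress signalling, 5 were called higher and 8 lower (2 and 5 with normexp), and the 17 unlisted members had a median of -0.07. SERPINA6, the plasma globulin that binds cortisol, ran from -1.64 to -1.06 in LWDL pigs (median -1.36) and from 0.24 to 0.60 in LWDM pigs (median 0.43), a difference of 1.75 (SE 0.08, limma adjusted p = 2.06e-09). The spread within each type was well under the distance between them. IGFBP1, a binding protein of insulin-like growth factors that insulin represses, ran from -0.61 to 2.72 in LWDL pigs (median 0.39) and from -2.33 to 0.43 in LWDM pigs (median -1.54), a difference of -1.84 (SE 0.47, limma adjusted p = 0.00937). SOCS2, which dampens growth hormone signalling, ran from 0.80 to 2.82 and from -0.57 to 0.98, a difference of -1.62 (SE 0.28). For IGFBP1 and for SOCS2, 1 LWDM pig lay within the LWDL range and the 6 others below it.

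SSTR2, a somatostatin receptor, ran from 1.08 to 2.85 in LWDL pigs and from -0.52 to 0.38 in LWDM pigs, a difference of -2.00 (SE 0.26) [-0.48, not called], with 1 of 7 LWDM arrays well above background. SESN3, a sestrin that restrains growth signalling through mTORC1, differed by 1.71 (SE 0.23) [0.45, not called]. Lower in LWDM pigs were also the stress factor NUPR1 (-1.53), the growth factor BTC (-1.28) [-0.68, not called], the transcription factor JUN (-1.18) and the regulator ID2 (-1.11), whereas the activin antagonist FST (1.51) [0.96, not called] and the stress factor ATF5 (1.43) were higher. HSD11B1, which regenerates cortisol, was at -0.24 (limma adjusted p = 0.100).

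**Figure D3:**
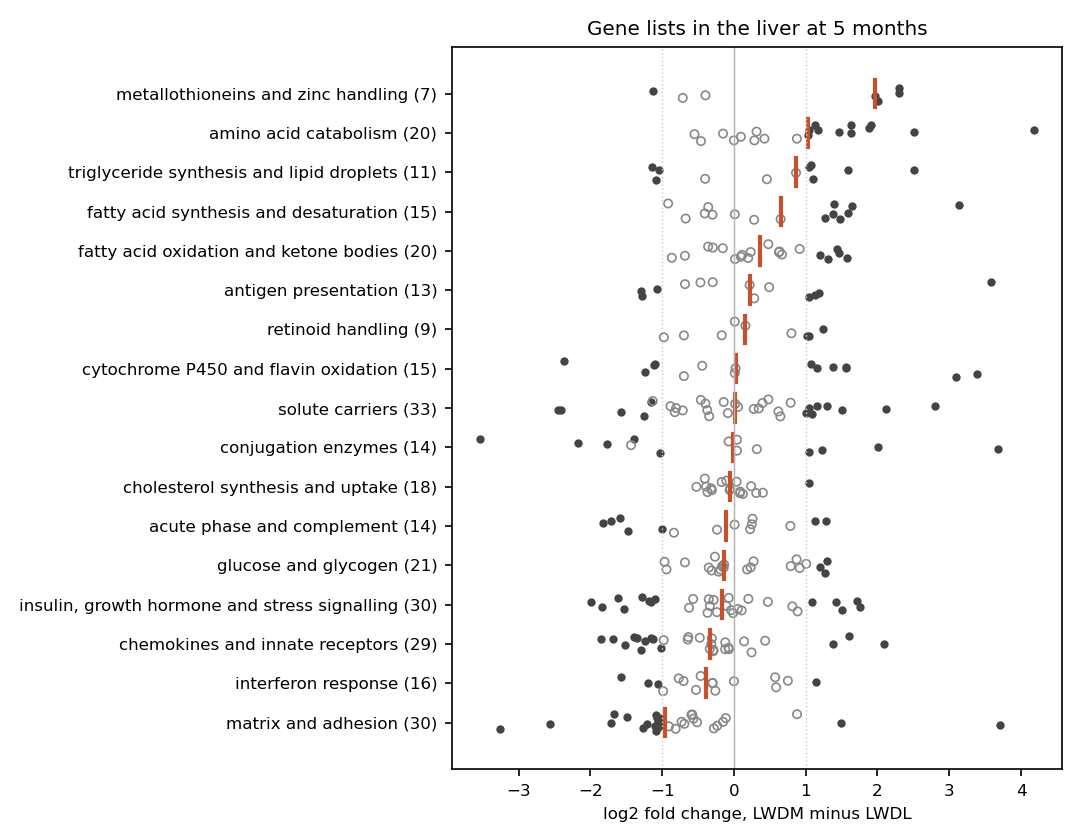
Each point is 1 gene of a list, placed by its difference between LWDM and LWDL livers on the log2 scale (x axis), with lists on the y axis and the number of tested genes in brackets. Filled points are genes that the study's tables list for this liver and open points the others, orange bars are medians over all members, and dotted lines mark 2-fold. The metallothionein (1.97) and amino acid (1.04) lists have the highest medians and matrix and adhesion (-0.95) the lowest. The open points lie nearer 0, which follows largely from the study's own 2-fold cutoff on these arrays.

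The acute phase and complement list held 2 genes called higher and 5 lower of 14 (1 and 3 with normexp), and the 7 unlisted members had a median of 0.23. IL6ST, the gp130 chain of interleukin 6 receptors, ran from -0.21 to 0.89 in LWDL pigs (median 0.35) and from -1.71 to -1.02 in LWDM pigs (median -1.41), a difference of -1.72 (SE 0.14, limma adjusted p = 7.42e-07). CRP, C-reactive protein, ran from 0.01 to 1.58 (median 0.60) and from -1.88 to 0.99 (median -1.60), a difference of -1.59 (SE 0.39, limma adjusted p = 0.00757), and its second probe differed by 0.53. LWDM pigs lay below every LWDL pig for CRP, apart from the pig at 0.99. Its relative APCS, serum amyloid P, differed by -1.48 (SE 0.39) and PTX3, the long pentraxin, by -1.82 (SE 0.22) [-0.46, not called], with 2 of 7 LWDM arrays well above background for PTX3. IL18, an activating cytokine, was higher by 1.28 (SE 0.35) [0.68, not called], and ITIH3, a plasma protein that stabilizes hyaluronan, by 1.13 (SE 0.27). CP, ceruloplasmin (0.01), C1S, a protease of complement (-0.24), and LEAP2, an antimicrobial peptide (0.25), were not called.

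Of 29 chemokines and innate receptors, 3 were called higher and 10 lower, with a median of -0.34 and of -0.29 over the 16 unlisted members. With normexp 2 remained, both lower: CCL19, which attracts naive T cells, at -1.29 in the values reported, and the probe named SLPI, after an inhibitor of leukocyte proteases, which targets pig LOC100512873 and ran from -3.10 to 0.62 in LWDL pigs and from -5.29 to -2.60 in LWDM pigs, a difference of -1.86 (SE 0.51, limma adjusted p = 0.0141) [-1.001]. The probe for pig SLPI itself was at 0.34 (limma adjusted p = 0.207). CCL8, which attracts monocytes, differed by -1.68 (SE 0.23) [-0.65, not called] and TSLP, a cytokine of epithelia, by -1.51 (SE 0.37) [-0.91, not called]. Higher were MPO, the peroxidase of neutrophils, at 2.09 (SE 0.28) [0.74, not called], and TLR5, the receptor of flagellin, at 1.61 (SE 0.13) [0.53, not called].

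Genes of the major histocompatibility complex and antigen processing gave 4 calls higher and 3 lower of 13 (1 and 2 with normexp), and the 6 unlisted members had a median of -0.04. HLA-DRB1 (LOC100153139), a class II chain, ran from -2.01 to 1.15 in LWDL pigs (median -1.23) and from 2.17 to 3.24 in LWDM pigs (median 2.70), a difference of 3.58 (SE 0.36, limma adjusted p = 7.81e-06) [1.07], with 1 of the 8 LWDL arrays well above background. HLA-B (pig SLA-3), a class I chain, ran from 0.01 to 0.55 and from -1.21 to -0.71, a difference of -1.29 (SE 0.09, limma adjusted p = 1.88e-07). Neither gene overlapped between the types. CIITA, the activator of class II genes, was lower, at -1.28 (SE 0.15) [-0.47, not called], in the opposite direction to HLA-DRB1. ERAP1, which trims peptides, differed by 1.12 (SE 0.16) [1.00, not called] and TRIM26 by 1.18 (SE 0.23) [0.93, not called]. Probes in this region can share signal between near-identical copies, so single probes are uncertain.

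Of 16 interferon response genes 1 was called higher and 3 lower (0 and 3 with normexp), with a median of -0.38 and of -0.30 over the 12 unlisted members. IFI6, an interferon-induced mitochondrial protein, ran from 0.93 to 1.99 in LWDL pigs and from -0.08 to 0.48 in LWDM pigs, a difference of -1.20 (SE 0.16, limma adjusted p = 8.03e-05). PARP14, which adds ADP-ribose, ran from 0.48 to 3.06 and from -0.74 to 0.14, a difference of -1.57 (SE 0.31), with LWDL pig 6 the highest. IFITM3, which restricts virus entry, differed by -1.06 (SE 0.18), a call lost without LWDL pig 6 (-0.91) or LWDM pig 1 (-0.99). SP140, a nuclear body protein of leukocytes, was the gene called higher, at 1.15 (SE 0.22) [0.66, not called].

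Among 33 solute carriers, 8 were called higher and 5 lower (3 and 1 with normexp), and the 20 unlisted members had a median of -0.11. SLC47A1, which extrudes organic cations into bile and urine, ran from 2.11 to 3.66 in LWDL pigs (median 2.73) and from -0.36 to 2.54 in LWDM pigs (median 0.01), a difference of -2.46 (SE 0.36, limma adjusted p = 0.000191) [-1.42]. LWDM pig 5, at 2.54, lay among the LWDL pigs and the 6 others lay at 0.11 or less. SLC22A3, an uptake carrier of organic cations, differed in the opposite direction, by 2.11 (SE 0.45) [1.14]. SLC9C2 (LOC100624136), of the sodium and proton exchangers, ran from -1.41 to -0.29 in LWDL pigs and from -0.68 to 2.60 in LWDM pigs, a difference of 2.81 (SE 0.40) [1.78], with LWDM pig 4 alone inside the LWDL range. SLC15A2, a peptide carrier, ran from 0.53 to 2.03 in LWDL pigs, while LWDM pigs 1, 2 and 3 lay between 0.74 and 1.18 and the other 4 between -3.42 and -2.22, a difference of -2.41 (SE 0.70) [-0.94, not called]. SLC1A2, a glutamate carrier, differed by -1.57 (SE 0.28) [-0.86, not called].

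Pigs of the same type thus lay at separate levels for some genes. Sequence differences between pigs under the probes were not tested. Among the 108 called genes reported, 10 had a gap of over 2 on the log2 scale between neighbouring LWDM pigs and 1 had such a gap between LWDL pigs. In LWDM pigs these were CYP4F3, EAF2, GSTA1, GSTA3, GSTM3, MPST, SLC15A2, SLC47A1, SLC9C2 and UGT2B17, and in LWDL pigs it was NEBL. For CYP4F3, EAF2, GSTM3, SLC15A2 and UGT2B17 at least 2 pigs lay on each side of the gap, and for the others 1 pig stood alone. The 108 genes were chosen partly for large differences, and how often all tested probes had such a gap was not counted. The pigs on the low side were not the same from gene to gene: pigs 4 and 5 for CYP4F3, pigs 1, 2 and 4 for UGT2B17, and pigs 4 to 7 for SLC15A2 and EAF2. LWDM pig 3 stood apart from the others of its type for GSTA3, where it was the highest, and for GSTA1, where it was the lowest. For EAF2 and SLC15A2 some of the pigs on the low side were not well above background, whereas for CYP4F3, GSTA1, GSTA3, GSTM3, MPST, SLC47A1, SLC9C2 and UGT2B17 every pig of the type was.

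Matrix and adhesion genes were the list with the most calls lower in LWDM pigs, with 15 of 30 lower and 2 higher (7 and 1 with normexp) and a median of -0.95 (-0.44 with normexp). The 13 unlisted members had a median of -0.56 and none was called. PCDH17, a protocadherin, ran from -0.26 to 0.49 in LWDL pigs (median 0.32) and from -1.69 to -1.05 in LWDM pigs (median -1.56), a difference of -1.72 (SE 0.12, limma adjusted p = 2.63e-07) [-1.07], and its 3 probes were all called. VIL1, the actin-bundling protein of microvilli, ran from -0.69 to 1.98 and from -1.50 to -0.60, a difference of -1.67 (SE 0.33) [-1.10]. LTBP2, which binds to microfibrils (-1.21), MPDZ, a junction scaffold (-1.07), and MMP7, a matrix protease of epithelia (-1.06), were also lower, whereas LAMB3, a laminin chain of epithelia, was higher (1.49). MFAP5, a microfibril protein, differed by -1.27 (SE 0.34) [-0.19, not called], a call also lost without LWDM pig 4 (-0.98). POSTN, periostin (-0.58), and CTGF, a growth factor of the matrix (-0.11), were not called.

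Some marker genes of cell types also differed between the breed types. The 6 hepatocyte markers with a named probe, all of them listed for this liver, were well above background, and their mean per pig ran from -0.14 to 0.16 in LWDL pigs and from -0.46 to 0.27 in LWDM pigs, which overlap. Of them SERPINA6, ITIH3 and ASGR1, a receptor that clears glycoproteins (1.13, SE 0.27), were called higher, and CRP, A1CF, an editing cofactor of apolipoprotein B messages (-1.04, SE 0.15) [-0.99, not called], and C5 of complement (-1.001, SE 0.30) [-0.93, not called] lower. The call of A1CF was lost without LWDM pig 5 (-0.99) or LWDM pig 6 (-0.93), and that of C5 without any of 6 pigs (-0.98 to -0.80). The mean of the 10 endothelial markers ran from -0.30 to 0.41 in LWDL pigs and from -1.27 to -0.57 in LWDM pigs, with no overlap. Of the 10 genes, 3 were called lower: CD34, a surface sialomucin, at -1.49 (SE 0.12) [-0.995, not called], GPR116, an adhesion receptor, at -1.86 (SE 0.42) [-0.91, not called], and BTNL9 at -1.21 (SE 0.24) [-0.40, not called]. The 7 unlisted endothelial genes, which include PECAM1 and FLT1, overlapped, from -0.77 to -0.01 in LWDL and from -1.40 to -0.46 in LWDM pigs, but their mean was lower in LWDM pigs (-0.92, SD 0.34, against -0.25, SD 0.24). By limma 4 of the 7 had an adjusted p under 0.05, all under 2-fold, and their median difference was -0.63. The share of all tested probes at this limit is not given, and 58 of the 167 unlisted members of the pathway lists also passed it.

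Of 6 markers of B and plasma cells, 4 were lower in LWDM pigs: EAF2 (-2.29, SE 0.74) [-0.80, not called], IGJ, the joining chain of antibodies (-1.31, SE 0.29), CIITA, and CD180, a receptor on B cells (-1.13, SE 0.15) [-0.65, not called], whose second probe was at -0.26 (limma adjusted p = 0.411). Their mean ran from -0.07 to 0.65 in LWDL pigs and from -1.34 to -0.36 in LWDM pigs, with no overlap, whereas the mean of the 3 unlisted ones overlapped. The call of EAF2 was lost without LWDL pig 4 (-2.19) or without LWDM pig 4, 5, 6 or 7 (-2.23 to -1.83). Of 12 T and natural killer cell markers 0 were called by limma or by Student's test (by limma 4 had an unadjusted p and 2 an adjusted p under 0.05, under 2-fold), and their means overlapped, from -0.42 to 0.10 in LWDL and from -0.72 to 0.00 in LWDM pigs. CD163, a scavenger receptor of macrophages, was lower at -1.25 (SE 0.15), 1 of 3 macrophage markers called. Among 6 neutrophil and platelet markers MPO was called higher and RGS18 lower (-1.01, SE 0.15) [-0.74, not called], and the call of RGS18 was lost without any of LWDL pigs 3 to 6 or LWDM pigs 3 and 4 (-0.99 to -0.95). Of 4 erythroid markers ANK1, which anchors the membrane skeleton, was lower at -1.72 (SE 0.42) [-1.07], and HBE1, a globin, at -1.20 (SE 0.41) [-0.72, not called], a call lost without any pig but LWDL 2, LWDL 5, LWDL 8 or LWDM 4 (-1.24 to -0.95).

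Bile duct markers moved in both directions, with 2 of 6 called higher and 3 lower. SOX9, a factor of biliary and progenitor cells, differed by 1.19 (SE 0.17) [0.94, not called] and the keratin KRT23 by 2.35 (SE 0.58) [1.28], whereas PKHD1, PKD2, a channel of the cilium (-1.57, SE 0.14), and PROM1, a membrane protein of progenitor cells (-1.45, SE 0.46), were lower. The call of PROM1 was lost without LWDL pig 5 or without LWDM pig 4, 5 or 7 (-1.37 to -1.27). KRT19, a defining keratin of bile ducts, was not called. Of 6 stellate cell and fibroblast markers, THY1 was called higher (1.48, SE 0.34) and MFAP5 lower. Of the 4 genes on the skeletal muscle list, MYL7, a myosin light chain best known from the atrium and so no defining marker of skeletal muscle, was higher at 2.40 (SE 0.23) [1.04; 2 of 8 LWDL arrays well above background] and MYOM2 of the sarcomere at 1.24 (SE 0.26) [0.28, not called]. The mean of the 4 did not overlap, from -0.85 to -0.07 in LWDL and from 0.16 to 0.78 in LWDM pigs, while the unlisted fast muscle troponins TNNT3 and TNNI2 had a mean that overlapped, from -0.36 to 0.31 and from -0.23 to 0.30. The part that cell content had in the lower matrix and chemokine values was not tested.

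**Figure D4:**
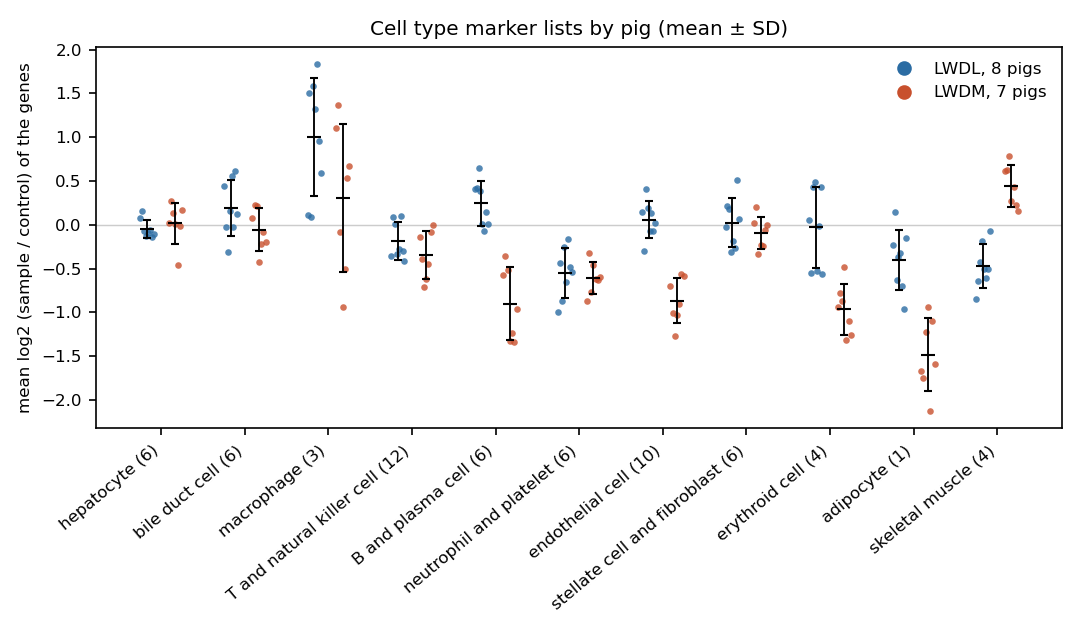
Each point is the mean log2 of sample over control of 1 marker list in 1 pig (LWDL blue, LWDM orange; number of genes in brackets), with black bars for the mean and SD of each type. Endothelial (-1.27 to -0.57 in LWDM) and B and plasma cell (-1.34 to -0.36 in LWDM) means lie below every LWDL pig, and hepatocyte and T and natural killer cell means overlap.

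The difference between the breed types in the 5-month liver was set against that in the livers of 85-day-old fetuses (6 and 6 pigs) and 12-day-old sucklings (5 LWDL and 6 LWDM pigs) and in the muscle (longissimus dorsi) of 5-month-old pigs (8 LWDL and 7 LWDM), and the change of the difference was tested as an interaction. LWDL fetus 2 stood apart, with a mean correlation of 0.209 to its group against 0.799 to 0.808 for the others, and fetal values are given with and without it. The interaction was called for 816 of 32610 probes (2.5%) against sucklings, 851 of 32866 (2.59%) against fetuses (951 of 32967, 2.88%, without LWDL fetus 2) and 882 of 33570 (2.63%) against muscle. With normexp these counts were 304, 359 and 363, and with the slide as a random block 553 were called against fetuses. Of the 704 probes called in the 5-month liver, 217, 239 (306 without LWDL fetus 2) and 317 had a called interaction with sucklings, fetuses and muscle. In suckling liver 550 of the 704 were tested, and 115 of these were called in the same and 4 in the opposite direction, where 500 of 29342 (1.7%) were called in all. In fetal liver 46 of 514 were called in the same and 17 in the opposite direction (76 and 22 of 520 without LWDL fetus 2), beside 244 of 29264 (0.834%) in all, or 427 of 29485 (1.45%) without LWDL fetus 2. In muscle 97 of 483 were called in the same and 4 in the opposite direction, beside 427 of 30401 (1.4%).

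For ACSL4, FASN, PNPLA3, SCD and SREBF1, genes of lipid synthesis and its control, the difference at 5 months exceeded that at an earlier age. This did not hold for PANK3, which was called in fetuses too (3.81, or 4.23 without LWDL fetus 2). Its interaction was not called (-0.67, limma adjusted p = 0.592; -1.09 without LWDL fetus 2). Of the 6 LWDL fetuses, 1 was well above background for PANK3. All of the interactions share the 5-month arrays. ACSL4 was higher in LWDM pigs by 1.64 at 5 months and at -0.35 in sucklings, an interaction of 2.00 (limma adjusted p = 4.08e-05). FASN had -0.20 in sucklings and -0.57 in fetuses (-0.40 without LWDL fetus 2), with interactions of 1.58 (limma adjusted p = 0.0331) and 1.94 (0.00195; 1.78 without LWDL fetus 2). PNPLA3 had -0.56 in sucklings, an interaction of 2.14 (limma adjusted p = 0.0148), and SCD had -0.26 in fetuses (-0.27 without LWDL fetus 2), an interaction of 1.75 (0.00152; 1.75 without LWDL fetus 2). SREBF1 had a called interaction with fetuses of 1.43 (1.30, limma adjusted p = 0.00309, without LWDL fetus 2). For SCD (interaction 1.15, limma adjusted p = 0.0894) and SREBF1 (0.54, 0.256) no change was called against sucklings. GPT was at 0.30 in sucklings, -0.08 in fetuses (0.19 without LWDL fetus 2) and 0.26 in muscle, with called interactions of 1.58, 1.97 (1.69 without LWDL fetus 2) and 1.62. Genes of sterol synthesis showed the reverse order of ages: SQLE, IDI1 and HMGCS1 were not called at 5 months, and in sucklings they differed by -4.78, -4.00 and -3.47, with interactions of 4.42 (limma adjusted p = 3.63e-06), 4.40 and 3.71.

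Other genes differed in the same direction at other ages. CYP4F3 was at 3.64 in sucklings (called) and at 4.28 in fetuses (5.08, called, without LWDL fetus 2) beside 3.10 at 5 months, and at 0.00 in muscle. Its interactions with these ages were not called (limma adjusted p = 0.728 and 0.570). Without LWDL fetus 2 the interaction with fetuses was -1.98 (limma adjusted p = 0.202), also not called. The metallothioneins were higher in LWDM sucklings too, MT1E by 1.29 and MT1F by 1.18, with no called interaction, and were at 0.02 and -0.20 in muscle. In fetuses MT1E was at 1.06 (0.78 without LWDL fetus 2) and MT1F at 0.77 (0.57), neither called, whereas MT2A was called at 1.61 (1.26) with no called interaction (0.69, limma adjusted p = 0.417; 1.04 without LWDL fetus 2). The interaction with fetuses was called for MT1F (1.25, limma adjusted p = 0.0294; 1.44 without LWDL fetus 2), and for MT1E (1.24, limma adjusted p = 0.0860) only without LWDL fetus 2 (1.52, 0.0137). AADAT was well above background on all 6 LWDM and on none of the 5 LWDL suckling arrays, and the same held for LOC285141. UGT2B17 differed by -1.19 in sucklings and CYP2C18 by -1.18, and neither interaction was called. In fetuses, where every array was well above background for it, LOC285141 differed by 0.56 (-0.15 without LWDL fetus 2). A p that misses the threshold does not show that the ages were alike: the interaction of CYP2C18 with sucklings was -1.18 (SE 0.48, limma adjusted p = 0.115).

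SLC47A1 reversed. Its difference of -2.46 at 5 months stood against 2.12 in sucklings and 4.28 in fetuses (4.48 without LWDL fetus 2), and the interactions were -4.58 (limma adjusted p = 4.94e-05) and -6.73 (3.86e-08; -6.93 without LWDL fetus 2), while muscle was at 0.18. No LWDL array of fetal liver was well above background for SLC47A1, so its fetal values are fitted ratios and not measured sizes. IGFBP1 also reversed between the suckling age, at 1.84, and 5 months, at -1.84, an interaction of -3.69 (limma adjusted p = 0.00169), and was at -0.76 in fetuses (limma adjusted p = 0.606; -1.49, called, without LWDL fetus 2). Its interaction with fetuses was not called (-1.08, limma adjusted p = 0.472; -0.35 without LWDL fetus 2). CYP2J2 was at -1.07 in sucklings and -1.06 in fetuses (-0.61 without LWDL fetus 2), not called at either age, with interactions of 2.63 and 2.62 (2.17 without LWDL fetus 2). LEAP2 was lower in LWDM sucklings, at -3.88, and in LWDM fetuses, at -2.75 (-2.84 without LWDL fetus 2), and at 0.25 at 5 months. PAPLN was at 4.64 at 5 months and at 1.73 in sucklings (both called), at 1.26 in fetuses (0.53 without LWDL fetus 2, not called either way) and at -0.09 in muscle, and each interaction was called.

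Some differences were also seen in muscle. Both tissues came from the same pigs per the methods, while the fit of the interaction took all of these arrays as independent. MAN2B2 differed by 3.24 in muscle and 3.04 in liver, HLA-DRB1 by 2.47 and 3.58, and POLR3B by -1.98 and -3.15, of which only POLR3B had a called interaction (-1.17, limma adjusted p = 0.00323). CD163 was lower in both tissues (-1.33 in muscle). Several detoxification genes differed more in liver than in muscle by the interaction: GSTA3 (-0.07 in muscle, interaction -3.48, limma adjusted p = 3.9e-06), CYP2C18 (0.01, -2.37) and UGT2B17 (-0.02, -2.15). SERPINA6 was at -0.15 in muscle, an interaction of 1.91 (limma adjusted p = 1.09e-11). Of the 108 called genes reported, an interaction was called for 33 of the 81 measured in fetuses (40 without LWDL fetus 2), 40 of the 92 measured in sucklings and 46 of the 71 measured in muscle, and these genes were chosen for their 5-month difference.

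**Figure D5:**
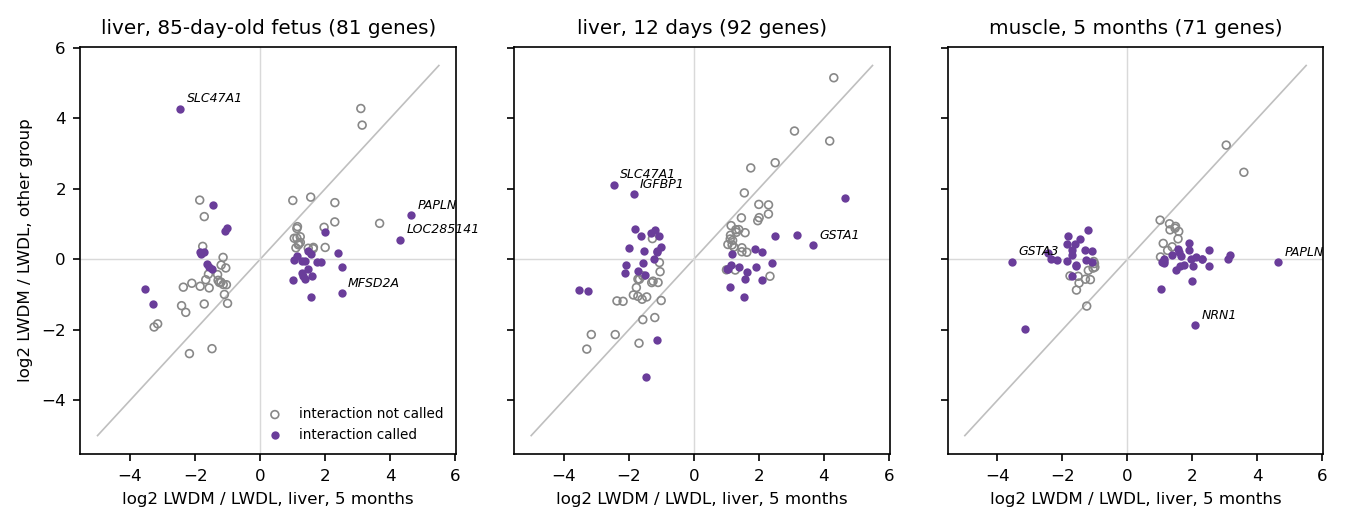
Each point is 1 gene called in the 5-month liver, with its LWDM minus LWDL difference there on the x axis and the same difference in fetal liver (81 genes, all arrays), suckling liver (92 genes) or muscle (71 genes) on the y axis, both on the log2 scale. Purple points have a called interaction, grey circles do not, and the grey line marks equal differences. SLC47A1 lies at -2.46 on the x axis and at 4.28 and 2.12 on the y axes of the liver panels, and PAPLN lies below the line in all panels.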

How the data were processed

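RNA of each sample was labeled with Cy3 and hybridized with the Cy5-labeled control pool on a pig Agilent array, and the spots were read with Agilent Feature Extraction 9.5 per the submitters' processing notes. The authors deposited the scanner output, from which the dye-normalized log10 ratio of red over green was taken for each of 43221 probes. Its sign was turned and it was multiplied by log2(10), so that a positive log2 value means more RNA in the pig than in the control. The Cy3 and Cy5 intensity of each spot, also in the deposited scanner output, served for the filter on dim probes, for normexp (offset 50) with loess, and for the bounds. The authors' value table holds the same log10 ratios with the sign turned and rounded (largest difference 0.00499, column medians from -0.00142 to 0.00444), and was an alternative here.

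Probes with at least 3 values a group were fitted with limma 3.58.1 in R 4.3.3 (lmFit and eBayes, two-sided, Benjamini-Hochberg over all tested probes), LWDM minus LWDL. Spots marked as outliers were left out. The interactions were fitted on the arrays of both ages or both tissues. Figures were drawn with matplotlib 3.10.9. The script for the fit was tested on simulated data. The number of arrays limits the precision.

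Names are the human symbols that the study's tables give to 2011 probes (1526 symbols, 577 probes listed for this liver), and pig symbols come from RefSeq. The array was designed on another assembly than the annotation used here, so no coordinates are given. The tables also hold the authors' own fold changes and p values, which were not used. A gene with several probes is represented by the one listed for this liver, or otherwise by the brightest. Genes were named if the study discusses them for this liver, if they were among the 10 largest differences in each direction with no overlap, among the 5 largest calls or the 2 brightest uncalled members of a list, among the 5 largest calls of each interaction, or called markers. Some genes that meet this rule are not reported here. Others, such as OAT or NUPR1, were chosen after their values were seen. The members and lists were chosen with earlier results of these data known.

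The replicate numbers did not pair pigs across breed types, with correlations of their deviations from -0.349 to 0.179 over 7 numbers and 1 number correlating best with itself. Per the methods, liver and muscle were taken from the same pigs, and their arrays are numbered alike, but the labels do not name the animal of an array. The muscle array of the same number was the nearest for 9 of 15 liver arrays (r from -0.0566 to 0.333, median 0.242). The alternatives tried were Student's test with equal variances, normexp with loess, the Cy3 channel alone, centring, other filters, the authors' table, slide and replicate blocks, a fit over all liver arrays, and leaving out each pig. Arrays of fat were not used here.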

Additional observations from a re-analysis of the deposited data

Results flagged for a closer look

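In 34 of 298 groups of values (pigs of 1 breed type for 1 gene, or the correlations of the arrays), the highest or lowest pig stood apart, its gap to the next pig taking a larger share of the group's range than Dixon's critical value allows. Chance marks about 1 in 20 groups. LWDL pig 6 was the pig that stood apart for 6 genes, LWDL pig 4 and LWDM pig 2 for 5 each, LWDM pigs 3 and 4 for 4 each, LWDM pig 5 for 3, LWDM pig 6 for 2, and LWDM pig 7 and LWDL pigs 3, 5 and 8 for 1 each.

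LWDL pig 6 was the highest of its type for AMBN (gap 0.536 of the range), C1S (0.745), GBP1 (0.605), PARP14 (0.529), PRODH (0.598) and PSMB9 (0.605), and the values of GBP1, a GTPase induced by interferon, and PSMB9, a subunit of the immunoproteasome, were 1.63 and 1.38 in it. Among the mean correlations of LWDL arrays to their group, its value was the lowest and apart from the others (gap 0.574 of the range). LWDL pig 4 was the highest for AADAT (1), GSTA3 (0.532) and NEBL (0.663) and the lowest for AFP (0.585) and APCS (0.542). The gap of AADAT is fixed by the scanner software, which set the 7 other LWDL ratios to exactly 0, and no LWDL array was well above background for it. ASZ1 was highest in LWDL pig 3 (0.785), FKBP14 in LWDL pig 5 (0.723), and CYP26A1 lowest in LWDL pig 8 (0.632).

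LWDM pig 2 was the highest for MAN2B2 (0.73), NEBL (0.879) and PCDH17 (0.732) and the lowest for SULT1E1 (0.66) and TNFSF10 (0.581). LWDM pig 3 was the highest for GSTA3 (0.918) and the lowest for AMDHD1 (0.614), IDI1 (0.605) and MSMO1 (0.611), the last 2 of them sterol synthesis enzymes. LWDM pig 4 was the lowest for MPST (0.689), MT2A (0.58), SLC9C2 (0.914) and SP140 (0.585). LWDM pig 5 was the highest for SLC47A1 (0.838) and the lowest for FKBP14 (0.684) and LEAP2 (0.757). LWDM pig 6 was the highest for CD163 (0.569) and DHODH (0.724), and LWDM pig 7 the highest for SLC39A9 (0.669).

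The difference between the breed types in liver changed between sucklings and 5 months, by the interaction in limma, for ACSL4 (2.00), AFP (1.41), CYP2J2 (2.63), FASN (1.58), HMGCS1 (3.71), IDI1 (4.40), IGFBP1 (-3.69), LEAP2 (4.13), PAPLN (2.91), SLC47A1 (-4.58) and SQLE (4.42), among the genes that the study discusses and the 5 largest of each interaction.

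Between fetuses and 5 months it changed for AADAT (3.695), ACADSB (1.42), ASZ1 (3.77), CYP2J2 (2.62), FASN (1.945), LEAP2 (2.99), LOC285141 (3.75), NEBL (4.03), NRN1 (2.33), PAPLN (3.385), PIK3R1 (3.82), PROM1 (-2.99), SCD (1.745), SLC47A1 (-6.73) and SREBF1 (1.43). Without LWDL fetus 2 the interaction of NRN1, a protein of growing neurites, was 2.23 and no longer called (limma adjusted p = 0.0528), and those of the others stayed called, with ACADSB at 1.03, PAPLN at 4.12 and PIK3R1, the regulatory subunit of phosphoinositide 3-kinase, at 4.09. That of ACSL4, not called with all fetuses, was then called at 1.98 (limma adjusted p = 9.17e-08), beside a fetal difference of -0.33. Fetal liver was not well above background for AADAT, NEBL and NRN1 on any array, for ASZ1 on any but 1 LWDM array, for PIK3R1 on any of the 6 LWDM arrays and for SLC47A1 on any of the 6 LWDL arrays, so these interactions are fitted ratios and not measured sizes.

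Between liver and muscle at 5 months it changed for AADAT (4.38), ACSL4 (1.56), AFP (-4.10), CYP2C18 (-2.37), CYP3A4 (-1.015), CYP4F2 (1.25), CYP4F3 (3.095), LOC285141 (4.15), NEBL (3.43), NRN1 (3.95), PAPLN (4.73), RDH16 (1.12), SLC47A1 (-2.635), SREBF1 (1.27) and UGT2B17 (-2.15). AADAT and LOC285141 were not well above background on any LWDL liver array at 5 months, nor were AADAT, LOC285141 and NEBL on any array of muscle, so their interactions are fitted ratios and not measured sizes. AFP, the fetal plasma protein, was at 0.43 in liver and at 4.53 in muscle, where 1 of 8 LWDL arrays was well above background.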

How the results depend on the processing

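Of 704 called probes (353 higher and 351 lower in LWDM pigs), normexp with loess gave 325 (180 and 145) and the Cy3 channel alone 332 (179 and 153). The stricter filter on dim probes left 229 called lower, and leaving out single pigs gave 664 to 784 calls, 327 to 385 higher and 333 to 403 lower. The other alternatives gave 484 (the stricter filter) to 872 calls, and each of the 704 probes kept its direction under every alternative that tested it. Without the genes listed for this liver, 2 of the 167 members of the pathway lists were called, and with normexp 76 of 298, against 133. For the interactions normexp gave 304 calls against sucklings (816 as reported), 359 against fetuses (851) and 363 against muscle (882), and the slide as a random block gave 553 against fetuses. Leaving out single pigs gave 694 to 990, 705 to 959 and 776 to 983 calls.

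With the replicate number as a block 728 probes were called (375 higher and 353 lower), and the calls of IL18 and PGM1 were lost. The block gave 650 calls for the interaction with sucklings and 678 for that with fetuses, and the number taken as the animal, as a block, 918 for muscle. IFI27L2, under 2-fold as reported, was called (-1.01), and the block changed no other named call.

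Of 108 named called genes, 39 lost the call with normexp, 41 with Cy3 alone, 6 with all liver arrays in 1 fit and 3 each with Student's test or without a filter, and none changed direction. Genes not called and near 0 changed sign: CP was at -0.0476 with normexp and -0.0305 with Cy3 alone, CYP26A1 at -0.0582, -0.0198 and, under the replicate block, -0.0993, and MSMO1 at 0.0343 with Cy3 alone. With single pigs left out, CLEC18C ran from -0.32 to 0.11, CP from -0.0497 to 0.0691, CTGF from -0.34 to 0.14, CYP26A1 from -0.0993 to 0.0610, CYP3A5 from -0.0511 to 0.123, G6PC from -0.37 to 0.0897, GLYAT from -0.16 to 0.0111 and MSMO1 from -0.19 to 0.0421. The cause of these changes was not tested. Low signal over background limits dim probes, of which 7 called ones were at background on all arrays of 1 breed type.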

Other observations

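Several genes that were not called at 5 months differed between the breed types at an earlier age. MSMO1 of sterol synthesis was at -3.34 in suckling liver (limma adjusted p = 0.000385), with an interaction of 3.23 (limma adjusted p = 2.65e-05), so that it stood beside SQLE, IDI1 and HMGCS1 in that. LGMN, a lysosomal protease that processes antigens, was called in sucklings at 1.01 and was at 0.22 at 5 months, and its interaction of -0.79 was under 2-fold. The interaction with fetuses was called for SULT1E1 (3.65, limma adjusted p = 0.0315; 2.51 without LWDL fetus 2) and for SLC39A9 (-3.01, limma adjusted p = 0.0472; -3.30 without LWDL fetus 2). GLYAT was at 2.85 in fetal liver without LWDL fetus 2 (called) and at 1.58 with it (limma adjusted p = 0.516).

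Of 266 genes with several tested probes, 119 had at least 1 called, and 79 of these had every probe called in 1 direction. GLYAT is a gene whose probes disagreed: the probe that represents it was at -0.07 at 5 months, and its second probe, for the pig gene LOC100518644, was called at -2.92.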
